A study of Gossypium hirsutum with 24 samples.

Results

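The transcripts described here are 118 probe sets of the Affymetrix Cotton GeneChip array that were annotated to the steroid hormone brassinosteroid, out of 23977 cotton probe sets measured. They are the probe sets that the study's hormone table gave to brassinosteroid among the transcripts it listed at 0, 2 or 5 dpa (days post anthesis). Of 142 such probe sets, 24 that also stood in the study's tables of transcription factors or of other gene groups were left out. The 118 carry the Arabidopsis hormone gene to which that table matched them, and 28 such genes share them, so several probe sets have the same name. A name such as BRI1 or UGT73C5 therefore stands for the hormone gene matched and not for the closest Arabidopsis protein, which can be another member of that gene family. Some members have another name in other tables, such as EXL1 in place of EXL5 for Ghi.10316.1.S1_s_at and a leucine-rich repeat kinase other than BAK1 for Ghi.8869.1.S1_s_at. The closest match of a gene means below the member with the best match to it. Of the 118, 52 have identifiers ending in _s_at and 9 in _x_at, types of probe set that can detect several related transcripts, and 19 fall into 9 groups that share a sequence cluster.

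Expression was measured in field-grown bolls of Gossypium hirsutum cultivar Bikaneri narma, an upland cotton, with 3 arrays for each of 8 groups. Infested bolls (BS) carried a larva of the cotton bollworm Helicoverpa armigera under a bag for 8 h at 0 dpa, for 2 days at 2 dpa and for 5 days at 5 dpa. BS bolls of 10 dpa had lost their larva after 5 days of feeding and then stayed on the plant. Noninfested control bolls (CN) of the same cultivar were also covered with bags and were taken at the same 4 labelled stages. Whole bolls were used at 0 and 2 dpa and, for BS, only the infested part of the boll at 5 and 10 dpa. The methods do not state which part of the CN bolls was taken at 5 and 10 dpa. The part of the boll sampled therefore cannot be told apart from infestation at these stages. By the methods each replicate pooled bolls from 5 plants, and BS and CN came from different plots, so plot and infestation cannot be told apart. The sources differ on how long the 10 dpa BS bolls grew on after the larva was removed, so a difference in age between BS and CN bolls at that stage cannot be told apart from infestation.

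Brassinosteroids are plant hormones made from membrane sterols by a chain of reductases and cytochrome P450 enzymes. They bind the receptor kinase BRI1 and its relatives at the cell surface, with BAK1 and other SERK kinases as co-receptors, and the signal passes through BSK kinases to the transcription factors BZR1 and BES1. Their activity is ended by hydroxylation, glucosylation or sulphonation. In cotton they are known for promoting the initiation and elongation of fibres on the ovule surface, and in Arabidopsis for the development of anthers and pollen.

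The deposited values are log2 values made with RMA, in which the median of each probe set over the 24 arrays is 0, so a value of 1 means a signal 2 times that of the median array. They give no absolute level, so transcripts could not be ranked by abundance and the tissue could not be checked against marker levels. Medians of the arrays lay between -0.05 and 0.05 and their SDs over probe sets between 0.35 and 1.07, the highest in BS bolls of 10 dpa. Spiked hybridization controls were higher in BS than in CN at every stage, and the 4 differences lay between 0.58 and 0.84 log2 units. Centring the arrays on these controls moved the median BS minus CN of all cotton probe sets at 10 dpa to -0.59, against 0.08 in the values as deposited, so the directions below are relative to the authors' normalization. A lower value in bulk tissue can mean fewer cells of a type or less RNA per cell, and these cannot be told apart here.

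The members were chosen by the differences between BS and CN at 0, 2 and 5 dpa, which are therefore given as a description with no test, and BS minus CN at 10 dpa, measured on other arrays, was tested. A transcript was called up-regulated or down-regulated where its change reached 3-fold and its adjusted p, from a limma fit over all cotton probe sets, did not exceed 0.01, as in the methods of the study. By the same measure 27 members were higher and 17 lower in BS at 0 dpa, 16 and 42 at 2 dpa, and 39 and 19 at 5 dpa. Over all cotton probe sets 5.47% passed at 0 dpa (4.19% higher, 1.28% lower), 7.8% at 2 dpa (3.34% and 4.46%) and 8.85% at 5 dpa (6.39% and 2.46%). At 0 dpa the listing reached down to small changes. The smallest listed differences there were -0.90 for a probe set matched to the co-receptor SERK1 (GhiAffx.46290.1.S1_at) and 0.93 for one matched to SAG29 (Gra.2844.1.S1_s_at), whereas a CYP72C1 match with 1.35 (Gra.212.1.A1_s_at) was listed at 2 and 5 dpa only. The smallest listed at 2 dpa was -1.67, for a probe set matched to the expansin EXPA5 (GhiAffx.35152.2.A1_at), and at 5 dpa -1.42, for one matched to SOT12 (GhiAffx.39932.1.A1_at). Members with larger differences were not listed at these stages, up to 2.22 at 2 dpa (Gra.3000.1.S1_at, UGT73C5) and 4.23 at 5 dpa (GraAffx.8661.1.S1_at, SOT12).

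At 10 dpa 38 of the 118 members were up-regulated in BS bolls, 60 were down-regulated and 20 were not called. Among the 57 members whose identifiers end in neither _x_at nor _s_at the excess of falls was absent, with 23 up-regulated (40.4%) and 22 down-regulated (38.6%), against 9.62% and 9.36% of all such cotton probe sets. The 98 called members are 83.1% of the list, against 20.5% of all cotton probe sets. Probe sets that were past both thresholds at 0, 2 or 5 dpa are the closer comparison, because the members were listed for changes at those stages. Of 3397 such probe sets 78.2% were called at 10 dpa, and of the 101 members among them 88.1% were called, so the share of called members lies near that of early changed transcripts in general. By direction, 36.6% of these members were up-regulated and 51.5% down-regulated, against 42% and 36.2% of the 3397. Of all cotton probe sets 8.97% rose and 11.5% fell by these thresholds. With the arrays centred on the hybridization controls, 27 members were up-regulated and 65 down-regulated, against 5.42% and 20% of all probe sets. The median BS minus CN of the members was -1.76 log2 units, and that of all cotton probe sets was 0.08. Among the called members the largest adjusted p was 1.25e-09 (limma, Benjamini-Hochberg adjustment), and the standard errors of the 118 differences lay between 0.05 and 0.20 with n = 3 arrays per group. Of the 20 members not called, 16 passed the adjusted p but stayed under 3-fold, where 67.2% of all cotton probe sets passed the adjusted p alone. The arrays of BS and CN did not overlap for 115 members (97.5%), against 75.6% of all cotton probe sets.

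Both directions were found within most roles, and no difference between roles was tested. All 4 probe sets for sterol synthesis were down-regulated at 10 dpa, as were 19 of 30 for receptors and co-receptors and 13 of 16 for growth targets. Of the 33 matches to enzymes that inactivate the hormone 19 were up-regulated and 11 down-regulated. The rises were mostly those of UGT73C5 and CYP72C1, with 13 of 14 up-regulated, and the other 19 inactivation members had 6 up-regulated and 11 down-regulated. Of the 8 relay components 2 were up-regulated and 4 down-regulated. Of the 8 other target genes 6 were up-regulated and 1 was down-regulated, and of the 19 matches to anther genes 6 were up-regulated and 8 down-regulated. With quantile normalization 16 inactivation members were up-regulated and 6 down-regulated, the receptors gave 1 and 14, the relay components 1 and 3 and the anther genes 5 and 5. With centring on the hybridization controls the inactivation members gave 14 and 12, the receptors 1 and 19 and the relay components 1 and 6. The other counts by role moved by at most 1 under these scalings.

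**Figure D1:**
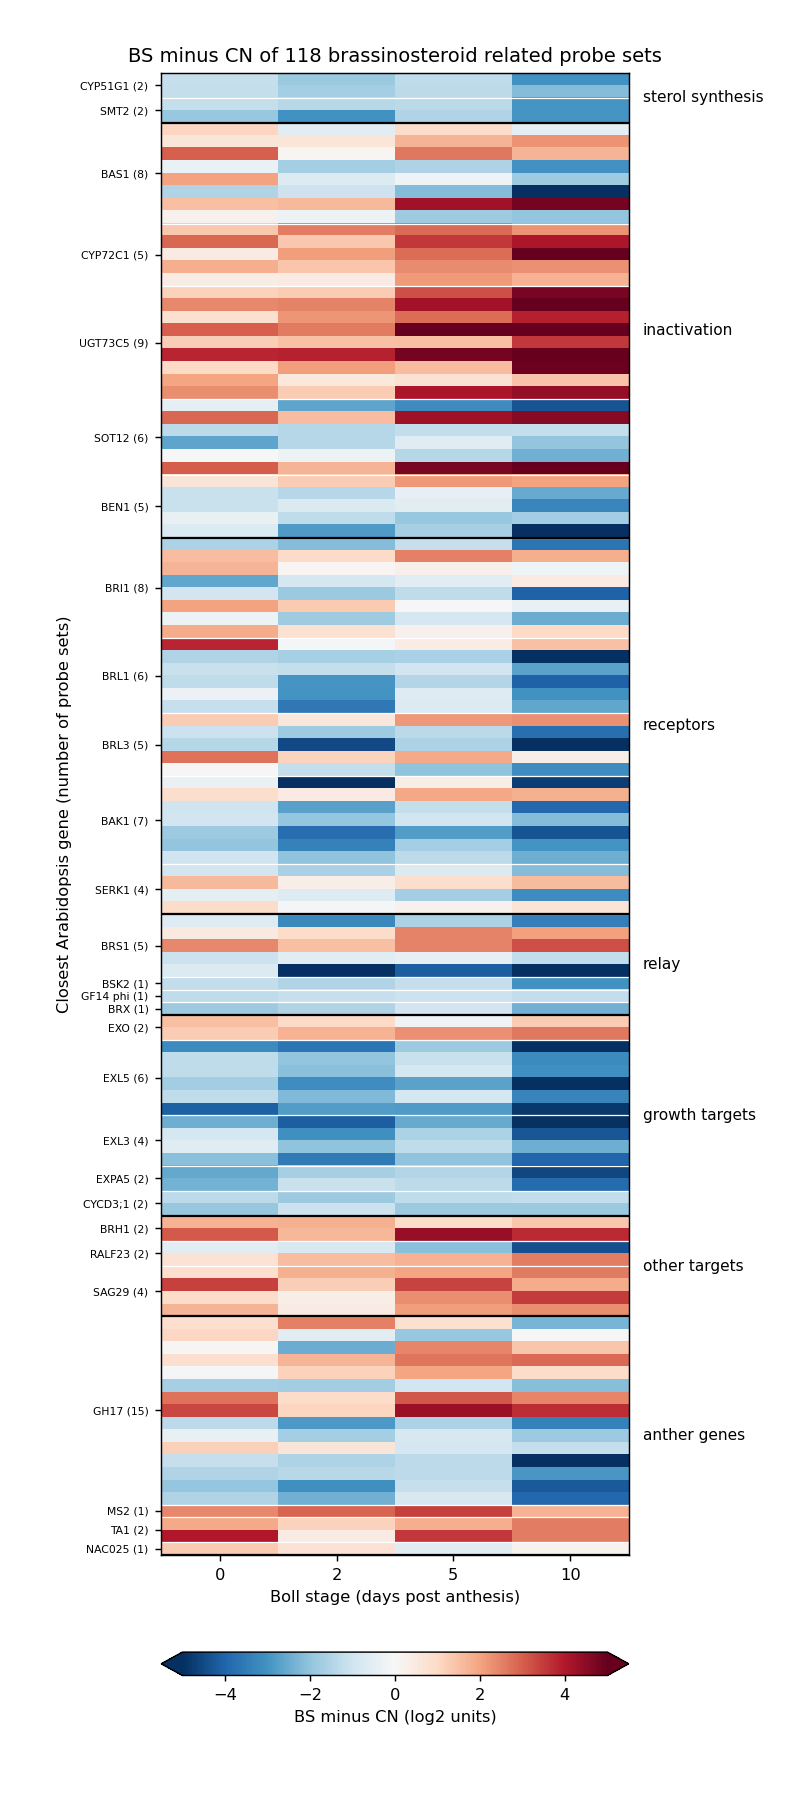
BS minus CN (colour, log2 units, colours end at 5 and -5) of the 118 probe sets at 0, 2, 5 and 10 dpa, in rows by matched Arabidopsis gene and role. The rows of CYP72C1 and UGT73C5 are red at all 4 stages, those of EXL5 and EXL3 blue at all 4, and the strongest colours stand at 10 dpa.

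The 2 enzymes of sterol synthesis among the members are CYP51G1 and SMT2. CYP51G1 is the sterol demethylase obtusifoliol 14-alpha-demethylase, and SMT2 adds the second methyl group to the sterol side chain. For CYP51G1 (Ghi.7901.1.S1_s_at) the arrays of 10 dpa read -2.02, -1.89 and -1.89 in BS bolls and 1.08, 1.04 and 1.20 in CN bolls. All 3 BS arrays were far below all 3 CN arrays, with a BS minus CN of -3.04 ± 0.07 log2 units (SE), or 8.23-fold lower in BS. For SMT2 (Ghi.7404.1.S1_at) the arrays read -2.43, -2.45 and -2.44 in BS bolls and 0.48, 0.55 and 0.51 in CN bolls, a BS minus CN of -2.95 ± 0.07. This SMT2 probe set was past the thresholds at 10 dpa only, where its fall was 7.72-fold, against 2.27-fold, 2.59-fold and 2.57-fold at 0, 2 and 5 dpa. The other probe sets of CYP51G1 (Ghi.5264.1.A1_x_at) and SMT2 (Ghi.10022.1.A1_x_at) gave -2.18 ± 0.08 and -2.96 ± 0.17 at 10 dpa. The second SMT2 probe set had already been past the thresholds at 0 dpa (-1.88) and 2 dpa (-3.02). The median of the 4 was -1.19, -1.78 and -1.33 at 0, 2 and 5 dpa and -2.95 at 10 dpa, lower in BS at every stage.

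Inactivation, the largest role, had 19 of its 33 members up-regulated at 10 dpa (57.6%), against 75% of the 8 other target genes. UGT73C5 is a glucosyltransferase that attaches glucose to brassinolide in Arabidopsis, and its relatives glucosylate other small molecules. Of its 9 matches among the members 8 were up-regulated at 10 dpa and none was down-regulated, with a median of 4.76 log2 units. The closest match (Gra.2963.1.S1_at) read 3.13, 3.41 and 3.25 in BS bolls and -1.35, -1.56 and -1.56 in CN bolls at 10 dpa, a difference of 4.76 ± 0.14 or 27-fold. Its difference was 1.13, 1.26 and 3.22 at 0, 2 and 5 dpa, so that it was larger at each later stage. Ghi.9236.1.S1_at read 4.24, 4.04 and 4.08 in BS bolls of 10 dpa and -1.33, -1.82 and -1.30 in CN bolls, a difference of 5.60 ± 0.11. Ghi.3235.1.A1_at and Ghi.6822.1.A1_s_at, also among the 5 largest rises, gave 5.51 ± 0.08 and 5.44 ± 0.13. These 3 probe sets were past both thresholds at all 4 stages. Ghi.7905.1.A1_at differed by 0.98 at 0 dpa and by 4.90 ± 0.13 at 10 dpa, and the uncalled match (Ghi.9820.1.S1_s_at) by 1.43 ± 0.06 at 10 dpa.

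CYP72C1 is a cytochrome P450 that lowers the level of active brassinosteroid when overexpressed in Arabidopsis. All 5 of its matches were up-regulated at 10 dpa, by 1.75 to 6.42 log2 units. The closest match (Gra.212.1.A1_s_at) read 0.79, 1.13 and 1.14 in BS bolls and -1.13, -1.18 and -1.33 in CN bolls, a difference of 2.24 ± 0.20. The largest rise of all 118 members at 10 dpa was that of GhiAffx.30915.1.S1_at, also a CYP72C1 match. It read 5.66, 5.78 and 5.51 in BS bolls and -0.86, -0.73 and -0.73 in CN bolls, a difference of 6.42 ± 0.16 or 85.6-fold. At 0 dpa the same probe set differed by only 0.41 ± 0.16, with BS arrays at -0.08, -0.31 and 0.08 and CN arrays at -0.56, -0.60 and -0.38. Its BS values at 2 dpa were 1.92, 2.68 and 1.95 and at 5 dpa 1.98, 2.15 and 2.25, so the largest step in BS bolls came between 5 and 10 dpa.

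The members matched to the other inactivating enzymes went in both directions. BAS1 is the C-26 hydroxylase CYP734A1, which inactivates brassinolide and castasterone in Arabidopsis. Its 8 matches divided at 10 dpa into 3 up-regulated, 4 down-regulated and 1 not called, between -5.38 ± 0.15 (Ghi.1198.1.S1_at) and 4.77 ± 0.13 (GhiAffx.2994.1.S1_at). The closest BAS1 match (GhiAffx.25127.1.A1_at) read -0.96, -1.06 and -1.00 in BS bolls and -0.59, -0.47 and -0.48 in CN bolls, a difference of -0.49 ± 0.07 that was under 3-fold. It was higher in BS at 0 and 5 dpa, by 1.09 and 0.92, and lower at 2 dpa, by 0.54 log2 units, so its small difference alternated in sign over the stages.

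SOT12 is a sulphotransferase that acts on brassinosteroids and on salicylic acid in Arabidopsis. Its 6 matches divided into 2 up-regulated, 3 down-regulated and 1 not called, with extremes on both sides. Ghi.7876.1.S1_s_at read 2.33, 2.48 and 2.18 in BS bolls and -2.61, -3.01 and -2.97 in CN bolls, 5.19 ± 0.13 or 36.5-fold higher in BS. The closest match (Ghi.7449.1.S1_at) read -2.23, -2.41 and -1.94 in BS bolls and 2.10, 2.13 and 2.15 in CN bolls, 19.9-fold lower in BS. In CN bolls this probe set peaked at 5 dpa, with 4.08, 4.05 and 3.97, while the BS arrays of that stage read 0.81, 1.01 and 0.90. BEN1 is a reductase related to dihydroflavonol reductase that affects brassinosteroid levels in Arabidopsis. Its closest match (Gra.2085.2.S1_s_at) was up-regulated by 2.03 ± 0.06, with 1.01, 1.07 and 1.06 in BS bolls and -1.06, -0.98 and -0.90 in CN bolls, and the other 4 matches were down-regulated, with differences down to -5.18. The BEN1 call fell under 3-fold with quantile normalization (1.56) and with centring on the hybridization controls (1.36), and the CYP72C1 call of Gra.212.1.A1_s_at under that centring (1.57).

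**Figure D2:**
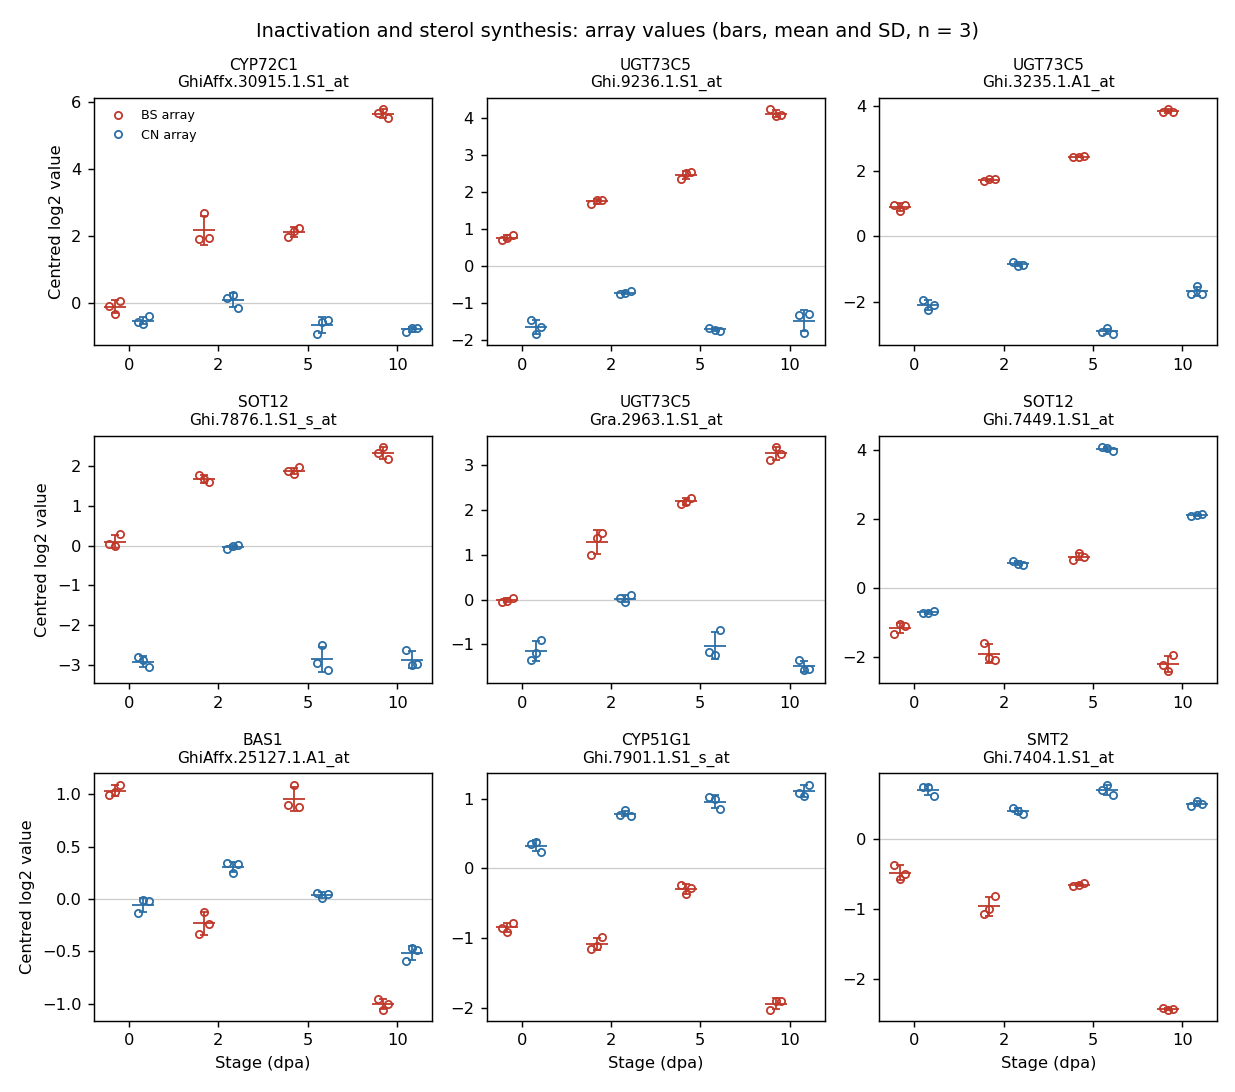
Centred log2 values of each array at 0, 2, 5 and 10 dpa for 7 inactivation and 2 sterol synthesis probe sets, with BS in red left of CN in blue (bars, mean and SD, n = 3). The BS values of CYP72C1 and UGT73C5 are highest at 10 dpa while the CN values stay low, and BS lies below CN at all stages for CYP51G1 and SMT2.

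Receptors and co-receptors were mostly lower in BS bolls. Down-regulation at 10 dpa was more frequent among those with identifiers ending in _s_at or _x_at than among the rest. BRI1 is the main brassinosteroid receptor of Arabidopsis, BRL1 and BRL3 are its relatives in vascular tissue, and all belong to the large family of leucine-rich repeat kinases. The closest BRI1 match (GhiAffx.24518.1.S1_s_at) read -3.02, -3.56 and -3.32 in BS bolls of 10 dpa and 0.39, 0.38 and 0.33 in CN bolls, a difference of -3.66 ± 0.09 or 12.7-fold lower in BS. It was lower in BS at 0, 2 and 5 dpa as well, by 3.01-fold, 4.52-fold and 2.25-fold. The other 7 BRI1 matches were split, with 1 up-regulated, 2 down-regulated and 4 not called, from -4.03 to 1.82. Of those 4, GhiAffx.6314.3.S1_at (-0.21 ± 0.13, adjusted p = 0.161) and Ghi.1573.1.S1_at (0.40 ± 0.14, adjusted p = 0.0129) did not pass the adjusted p of the limma fit at 10 dpa, although they had differed by 1.70 and -2.61 at 0 dpa.

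BRL1 matches were down-regulated with a single exception. Gra.1351.1.A1_s_at read -4.62, -4.73 and -4.67 in BS bolls and 1.26, 1.18 and 1.08 in CN bolls, 57.6-fold lower in BS. At 0, 2 and 5 dpa its differences had been only -1.50, -1.67 and -1.64, and the step in BS bolls fell between 5 and 10 dpa. The exception was the closest match (Ghi.4511.1.S1_at), which was 14.2-fold higher in BS at 0 dpa, with 1.82, 1.87 and 1.85 in BS bolls and -2.00, -1.83 and -2.11 in CN bolls. At 2 dpa BS and CN of this probe set lay within 0.10 log2 units of each other. At 10 dpa the difference was 1.48 ± 0.07, just under 3-fold and not called.

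The largest fall of all members was that of a BRL3 match (GhiAffx.15654.1.S1_at). It read -5.23, -5.31 and -5.12 in BS bolls of 10 dpa and 1.57, 1.68 and 1.65 in CN bolls, a difference of -6.85 ± 0.08 or 116-fold. Its BS values were -3.84, -3.54 and -3.44 at 2 dpa but -0.31, -0.25 and -0.12 at 5 dpa, a drop, a return and a second drop, while the CN values stayed between 0.12 and 1.68. The closest BRL3 match (GhiAffx.2573.1.A1_at) ran the other way and was up-regulated by 2.28 ± 0.14, with 1.70, 1.57 and 1.57 in BS bolls and -0.46, -0.86 and -0.67 in CN bolls. The other 3 BRL3 matches gave -3.75 ± 0.18, -3.10 ± 0.06 and 0.28 ± 0.07.

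BAK1 and SERK1 are co-receptors that also serve immune receptors. Of the 7 BAK1 matches 6 were down-regulated and 1 was up-regulated. The closest one (GhiAffx.6646.1.S1_s_at) alternated with stage. Its BS arrays read -0.19, -0.10 and -0.08 at 0 dpa, -4.61, -4.75 and -3.55 at 2 dpa, 0.50, 0.51 and 0.26 at 5 dpa and -4.84, -5.01 and -4.90 at 10 dpa, whereas all its CN arrays lay between -0.31 and 0.80. At 10 dpa the difference was -4.71 ± 0.19, or 26.3-fold lower in BS. Ghi.8869.1.S1_s_at and Ghi.2725.2.S1_at, both BAK1 matches, were past both thresholds in the lower direction at all 4 stages. Of the 4 SERK1 matches 1 was up-regulated and 2 down-regulated. The closest (GhiAffx.46290.1.S1_at) read -2.11, -1.94 and -2.32 in BS bolls and -0.02, -0.01 and 0.15 in CN bolls, 4.47-fold lower, a change that was under 3-fold with quantile normalization (-1.19). The SERK1 match that changed least at 0, 2 and 5 dpa (Ghi.9278.2.S1_s_at) read 0.16, 0.11 and -0.03 in BS bolls of 10 dpa and -0.59, -0.66 and -0.55 in CN bolls, a difference of 0.68 ± 0.08 that was not called.

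Relay components are represented by few probe sets. BRS1 is a serine carboxypeptidase whose overexpression rescues weak bri1 mutants in Arabidopsis. Its match Ghi.9910.1.S1_s_at had the second largest fall of the members. It read -2.52, -3.07 and -2.35 in BS bolls of 10 dpa and 4.10, 4.14 and 4.13 in CN bolls, a difference of -6.77 ± 0.14 or 109-fold. Here the CN bolls carried much of the difference, since their values were 0.36, 0.26 and 0.39 at 0 dpa and were higher at each later stage, while the BS values at 0 dpa were -0.26, -0.44 and -0.38. The closest BRS1 match (GraAffx.30457.1.S1_s_at) was 10.7-fold lower in BS at 10 dpa, 2 other matches were up-regulated, by 2.05 ± 0.13 and 3.22 ± 0.09, and GhiAffx.16141.1.S1_s_at was not called at -1.24 ± 0.06.

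BSK2 is a kinase phosphorylated by the receptor, and BRX is a regulator of root growth that links brassinosteroid with auxin in Arabidopsis. The BSK2 match (Ghi.8818.1.S1_at) read -3.10, -2.76 and -2.28 in BS bolls of 10 dpa and 0.26, 0.23 and 0.45 in CN bolls, a difference of -3.03 ± 0.13. The BRX match (Ghi.3844.1.S1_at) was 5.23-fold lower in BS, at -1.84, -1.74 and -1.63 in BS bolls and 0.65, 0.58 and 0.72 in CN bolls. With quantile normalization the BRX difference was -1.48 and under 3-fold. GF14 phi is a 14-3-3 protein, a family that holds BZR1 in the cytoplasm. Its match (Ghi.5367.1.S1_s_at) was 2.44-fold, 2.21-fold, 2.11-fold and 2.34-fold lower in BS at 0, 2, 5 and 10 dpa, a nearly even difference that did not reach 3-fold at any stage.

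Most growth targets were lower in BS bolls. EXORDIUM (EXO) and its relatives EXL3 and EXL5 encode apoplastic proteins, and EXO is required for brassinosteroid-promoted growth in Arabidopsis. All 6 EXL5 and all 4 EXL3 matches were down-regulated at 10 dpa, with differences between -6.40 and -2.45. Of these, 3 EXL5 matches share a sequence cluster, as do 2 EXL3 matches. The EXL5 match with the largest fall was Ghi.10316.1.S1_s_at. It is the only member with a primer pair for RT-PCR in the study's list, printed here 5′ to 3′ to identify the transcript, which the primer list describes as a phosphate-responsive family protein and another table as EXL1.
Ghi.10316.1.S1_s_at forward primer: ccgcctgaaccgtacaaa
Ghi.10316.1.S1_s_at reverse primer: gctagctgaatcgtcgagtaat
On the arrays of 10 dpa it read -3.17, -2.95 and -2.77 in BS bolls and 3.38, 3.42 and 3.49 in CN bolls, a difference of -6.40 ± 0.09 or 84.2-fold. In CN bolls it was higher at 5 and 10 dpa than at 0 and 2 dpa, where it read 0.67, 0.74 and 0.57 and 0.36, 0.20 and 0.26. The closest EXL5 match (Gra.1243.1.S1_s_at) read -4.03, -4.08 and -4.02 in BS bolls of 10 dpa and 1.93, 1.97 and 2.01 in CN bolls, 64.5-fold lower in BS. It was lower by 8.99-fold, 12.5-fold and 3.48-fold at 0, 2 and 5 dpa. The closest EXL3 match (GhiAffx.45244.1.S1_x_at) was 30.6-fold lower in BS at 10 dpa, with -2.75, -2.33 and -2.52 in BS bolls and 2.45, 2.35 and 2.41 in CN bolls.

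EXO itself differed from its relatives. Its closest match (Ghi.10089.1.S1_s_at) was 1.26 ± 0.08 log2 units higher in BS at 10 dpa and not called, with 0.55, 0.66 and 0.64 in BS bolls and -0.68, -0.69 and -0.56 in CN bolls. The other EXO match (Gra.744.1.S1_s_at) was up-regulated by 2.62 ± 0.08. EXPA5 is an expansin, a protein that loosens cell walls during growth. Both its matches were down-regulated, but they come from the same sequence and are not separate. The closest (GhiAffx.35152.2.A1_at) read -2.10, -2.16 and -2.04 in BS bolls of 10 dpa and 2.37, 2.52 and 2.47 in CN bolls, 23.4-fold lower in BS. CYCD3;1 is a D-type cyclin that drives cell division and is induced by brassinosteroid in Arabidopsis cells. Its closest match (Ghi.9479.1.S1_s_at) had differences of -1.31, -1.83 and -1.29 at 0, 2 and 5 dpa and of -1.22 ± 0.10 at 10 dpa, under 3-fold, and the other match (GhiAffx.24082.1.A1_s_at) was down-regulated at -1.85 ± 0.16. The study's tables and text name 18 further probe sets matched to fibre genes (expansin EXPA1, sucrose synthase, LTP3 and FLA1; no match was found for E6 and FbL2A). Of these 11 were called lower and 2 higher in BS at 10 dpa, with a median of -2.04 and a range from -5.59 to 7.90. Of all cotton probe sets 11.5% were called lower and 8.97% higher. Among those past both thresholds at 0, 2 or 5 dpa the shares were 36.2% and 42%. At 5 dpa 4 of the 18 were called lower and 5 higher. The study's tables list transcripts for changes on the same arrays, so these directions are not independent evidence. The part of these fibre genes in the fall of the growth targets was not tested.

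**Figure D3:**
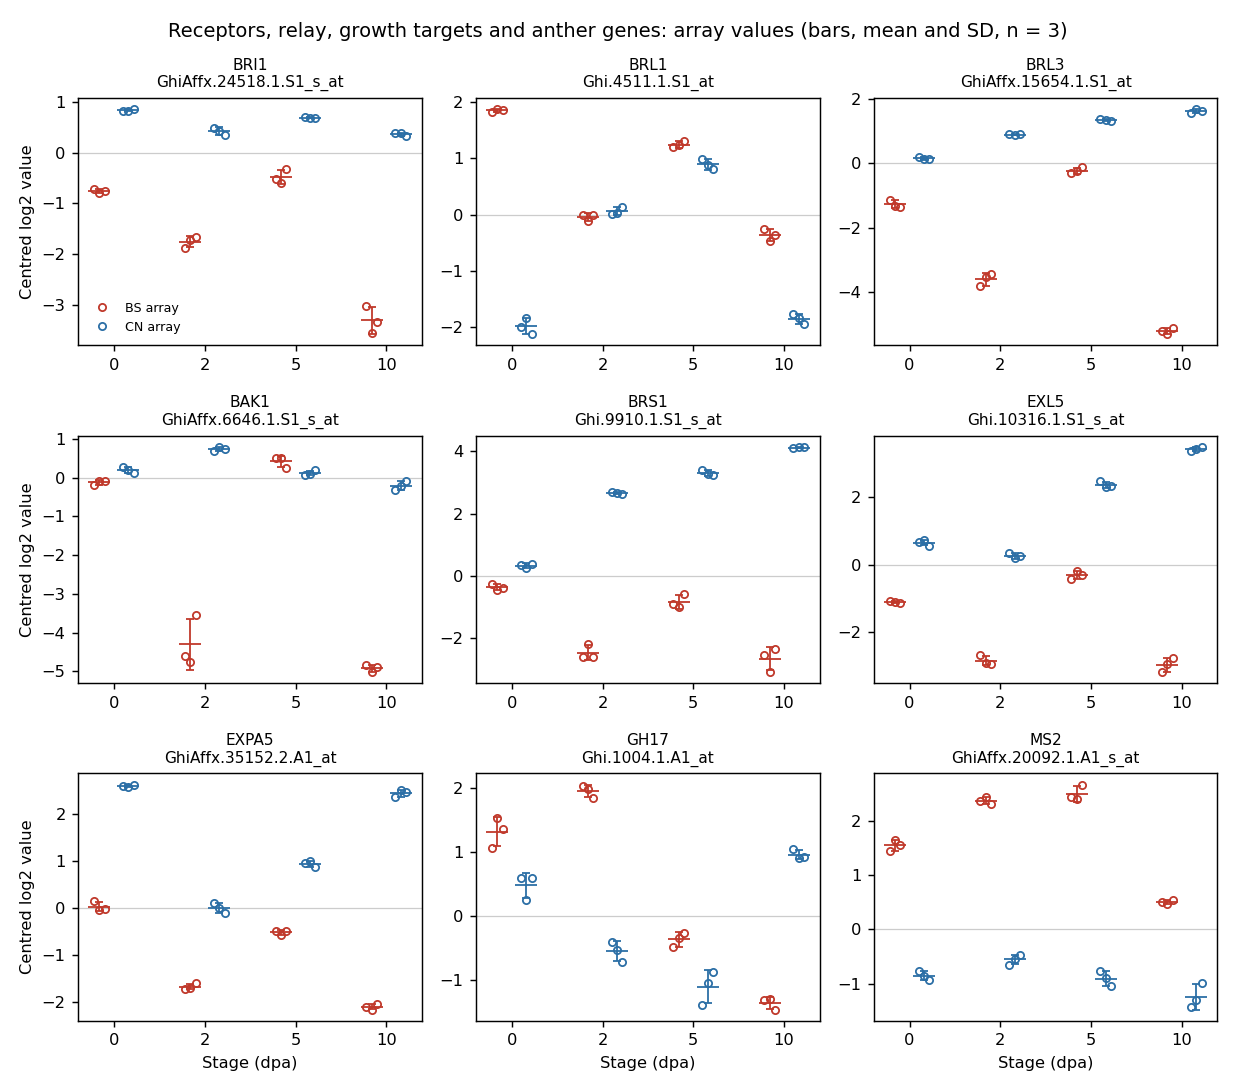
Centred log2 values of each array at 0, 2, 5 and 10 dpa for 4 receptor, 1 relay, 2 growth target and 2 anther gene probe sets, with BS in red left of CN in blue (bars, mean and SD, n = 3). The BRI1, BRL3 and BAK1 matches are low in BS at 2 and 10 dpa and closer to CN at 5 dpa, and the GH17 match is above CN at 2 dpa and below it at 10 dpa.

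The other target genes were mostly higher in BS. BRH1 is a RING finger protein whose transcript is lowered by brassinolide in Arabidopsis, and RALF23 is a growth-inhibiting peptide whose transcript brassinolide also lowers. One BRH1 match (GhiAffx.17894.1.S1_x_at) was past the thresholds in the higher direction at all 4 stages and rose by 3.73 ± 0.13 at 10 dpa. The closest BRH1 match (Ghi.664.1.S1_at) differed by 1.34 ± 0.08 and was not called at 10 dpa. The closest RALF23 match (GhiAffx.6717.1.S1_s_at) was 21.1-fold lower in BS, at -0.95, -0.93 and -0.68 in BS bolls of 10 dpa and 3.59, 3.54 and 3.53 in CN bolls. The other RALF23 match (Ghi.9186.1.S1_at) was up-regulated by 2.55 ± 0.06. SAG29 is the sugar transporter SWEET15, known from senescing leaves and seed coats of Arabidopsis. All 4 of its matches were up-regulated, by 1.87 to 3.48 log2 units, and the closest (Ghi.710.1.A1_s_at) read 2.63, 3.09 and 2.55 in BS bolls of 10 dpa and 0.15, 0.22 and 0.12 in CN bolls, 6.04-fold higher in BS.

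The matches to anther genes fell into separate groups. MS2 makes fatty alcohols for the pollen wall, and TA1 is a dehydrogenase of the tapetum, the cell layer that feeds pollen. The MS2 match (GhiAffx.20092.1.A1_s_at) was higher in BS at all 4 stages, by 5.31-fold, 7.62-fold, 10.7-fold and 3.37-fold at 0, 2, 5 and 10 dpa. At 10 dpa it read 0.50, 0.47 and 0.55 in BS bolls and -1.44, -1.31 and -0.99 in CN bolls, a change under 3-fold with quantile normalization (1.44) and with centring on the hybridization controls (1.09). Both TA1 matches were up-regulated at 10 dpa, by 2.54 ± 0.14 (Ghi.9176.4.S1_at) and 2.57 ± 0.07 (GhiAffx.5097.1.S1_at). The NAC025 match (Ghi.3343.1.A1_at) was 1.30 higher in BS at 0 dpa, while at 10 dpa its arrays overlapped, with -0.55, -0.53 and -0.61 in BS bolls and -0.50, -0.85 and -0.92 in CN bolls (limma adjusted p = 0.193). Outside the members, 9 probe sets matched to the anther genes AMS, NAC025, MS2 and QRT2 were known from the study's tables. In BS bolls of 10 dpa 8 of them were called higher and 1, an MS2 match, lower, with a median of 3.35 and a range from -2.35 to 7.61. Of all cotton probe sets 8.97% were called higher and 11.5% lower. Among those past both thresholds at 0, 2 or 5 dpa the shares were 42% and 36.2%. Several of the 9 are matches to the same gene, NAC025. The study chose these probe sets on the same arrays. All but the QRT2 match are also among the 24 left-out brassinosteroid probe sets counted below, so the 2 sets are not separate. The part of anther tissue in the anther gene values was not tested.

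The largest family among the members was that of 15 matches to a glycosyl hydrolase of family 17 (GH17), an Arabidopsis relative of the beta-1,3-glucanases that cut callose. At 10 dpa 3 were up-regulated, 8 down-regulated and 4 not called, between -4.98 ± 0.12 (Ghi.7551.1.S1_at) and 3.70 ± 0.09 (GhiAffx.19307.1.S1_s_at). The closest match (Ghi.1004.1.A1_at) read -1.32, -1.30 and -1.46 in BS bolls of 10 dpa and 1.05, 0.91 and 0.93 in CN bolls, a difference of -2.32 ± 0.13. At 2 dpa it had been 2.51 ± 0.13 higher in BS, with 2.04, 1.98 and 1.86 in BS bolls and -0.40, -0.54 and -0.71 in CN bolls. It was the only member that had been higher in BS at 0, 2 and 5 dpa and was down-regulated at 10 dpa, a call that quantile normalization ended (-1.50).

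**Figure D4:**
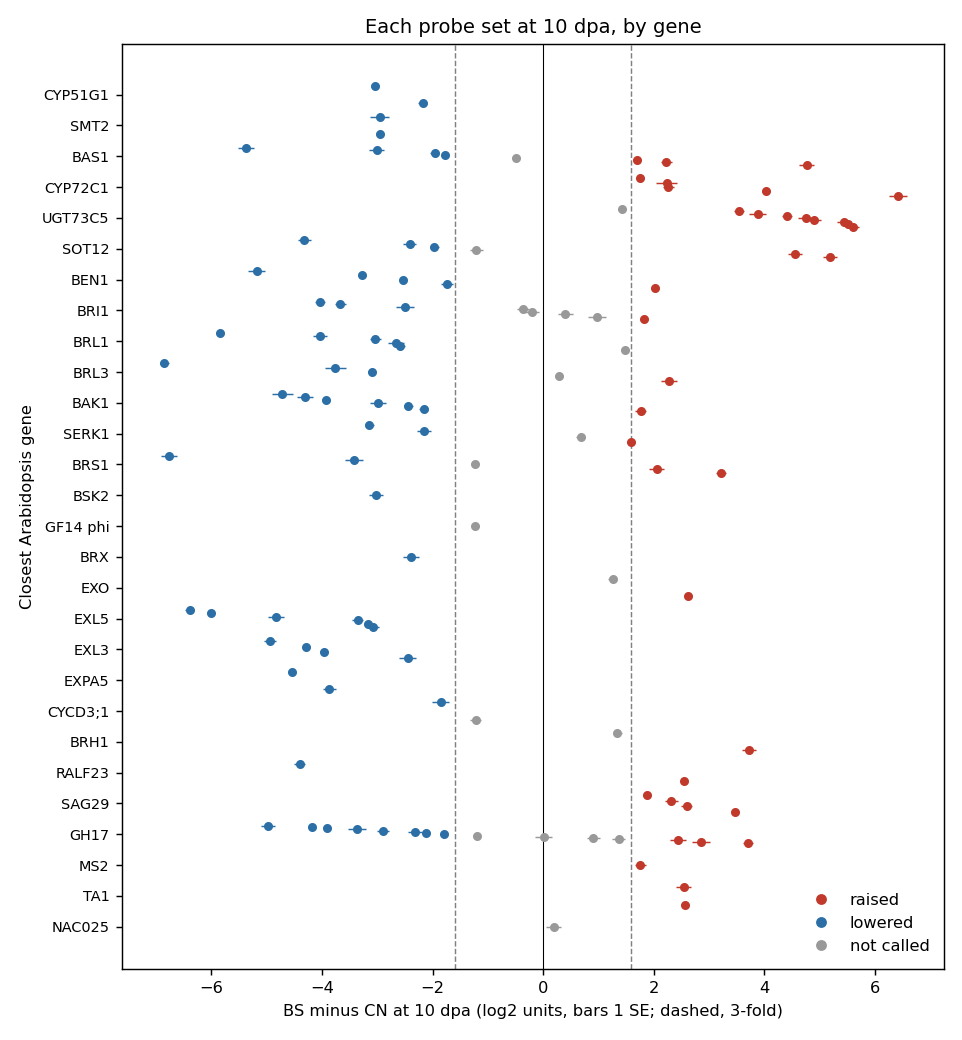
BS minus CN at 10 dpa of each of the 118 probe sets (points, log2 units; bars, 1 SE), by matched Arabidopsis gene, with dashed lines at 3-fold. All CYP72C1 matches lie right of the upper line and all EXL5 and EXL3 matches left of the lower line, while the matches of BAS1, SOT12 and GH17 lie on both sides.

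The direction at 10 dpa was set against the direction at the earlier stages, which were measured on other arrays. Of 44 members that were higher in BS at 0, 2 and 5 dpa, 38 were up-regulated at 10 dpa, 1 was down-regulated and 5 were not called. Over all cotton probe sets higher in BS at those 3 stages 30.9% were up-regulated, and 76.3% where at least 1 of the earlier differences was past both thresholds. Of 60 members that were lower in BS at all 3 stages, 55 were down-regulated and none was up-regulated. The shares of down-regulated probe sets among all those lower at the 3 stages were 29.2%, and 85.9% where at least 1 earlier difference was past both thresholds. Of the members that were past both thresholds early, 37 of 43 (86%) were up-regulated and 48 of 50 (96%) down-regulated in the direction of the earlier stages. Members were listed for their early changes, so their keeping of direction is not a result about the hormone genes. The other 14 members had mixed signs, and of these 4 were down-regulated at 10 dpa and 10 were not called. Members past the thresholds in the higher direction at all 4 stages numbered 6, and they were 3 UGT73C5 matches and 1 match each of SOT12, BRH1 and MS2. In the lower direction there were 7, namely 3 EXL5, 2 EXL3 and 2 BAK1 matches. Only 9 members were past both thresholds at 10 dpa alone, among them the closest SMT2 match, BSK2 and 2 BEN1 matches. The size of the difference grew with stage, with a median absolute BS minus CN of 1.27, 1.55, 1.58 and 2.76 at 0, 2, 5 and 10 dpa, against 0.28, 0.36, 0.40 and 0.60 over all cotton probe sets.

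Values within BS and within CN show on which side the members moved. These changes between stages share arrays with the comparisons above and are a description. The tissue taken from BS bolls changed from whole bolls to the infested part between 2 and 5 dpa. The 60 members down-regulated at 10 dpa changed in BS bolls by a median of -1.13 over the interval to 2 dpa, 1.16 over that to 5 dpa and -1.90 over that to 10 dpa, and 56, 56 and 58 of them moved in that direction. In CN bolls the same members changed by medians of -0.27, 0.37 and 0.03. With quantile normalization these were -0.05, -0.0024 and -0.22, and with centring on the hybridization controls -0.31, 0.61 and -0.20, so that only the first kept its direction. With quantile normalization the changes in BS bolls were smaller, at -0.56, 0.71 and -0.65, and kept their direction. The 38 up-regulated members rose in BS bolls by a median of 1.47 between 0 and 10 dpa, and 32 of them were higher at 10 dpa than at 0 dpa. With quantile normalization this median was 0.76, and the median change over the interval from 5 to 10 dpa was -0.05, against 0.59 as deposited. In CN bolls these 38 were higher at 2 dpa than at 0 dpa, by a median of 1.00, and lower at 5 dpa than at 2 dpa, by a median change of -1.24.

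**Figure D5:**
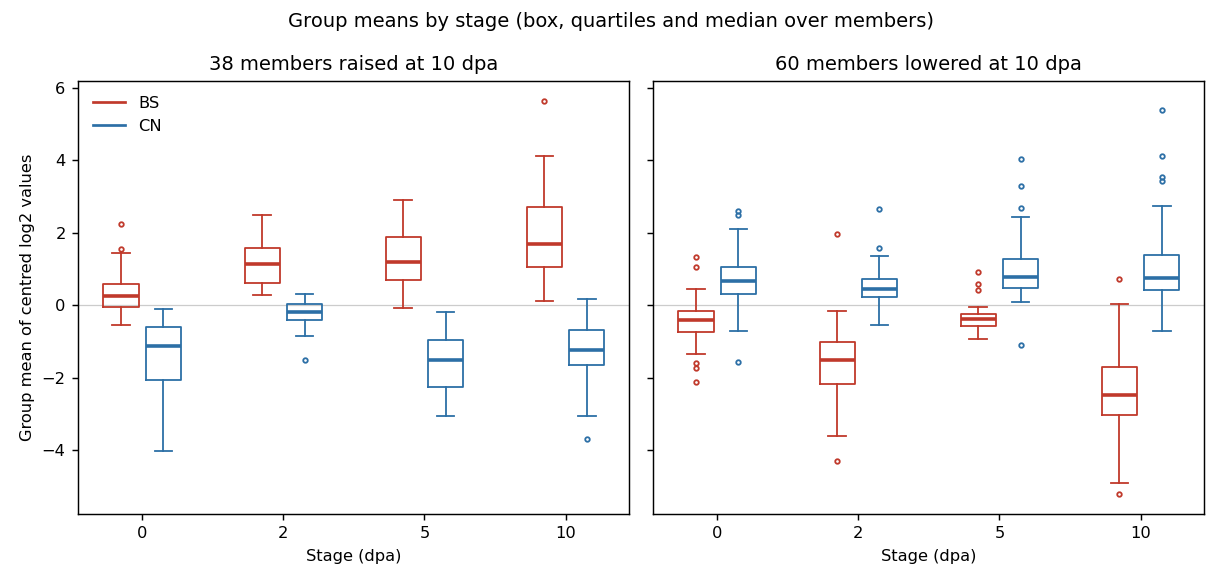
Group means (centred log2 values) of the 38 members up-regulated and the 60 down-regulated at 10 dpa, in BS (red) and CN (blue) bolls at each stage (boxes, median and quartiles over members; whiskers to 1.5 times the box; circles, members beyond). In the right panel the BS boxes are low at 2 and 10 dpa and nearer to 0 at 0 and 5 dpa, while the CN boxes stay above 0.

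Further brassinosteroid and sterol genes outside the members were taken from the study's tables, which chose most of them on these arrays, so their directions are not independent evidence. At 10 dpa 6 of 18 probe sets named as pathway genes were called higher in BS and 11 lower, where 8.97% of all cotton probe sets were called higher and 11.5% lower. Those down-regulated were sterol and hormone synthesis genes and a BSK kinase. CPD, the P450 of the C-3 oxidation step, differed by -4.33 log2 units, the steroid reductase DET2 by -3.17, the sterol reductase DWF1 by -3.61 and the 2 DWF5 probe sets by -2.07 and -2.44. Sterol methyl oxidase matches (SMO1 and SMO2) were down-regulated in 4 probe sets, the lowest at -4.74, up-regulated in 1 (3.25) and uncalled in 1. The other 5 up-regulated probe sets were those that the study's table of transcription factors puts in the BES1 family, with differences from 2.47 to 3.83, and the Arabidopsis protein given there for them is a beta-amylase. CPD had differed by 0.42, -0.32 and -0.67 at 0, 2 and 5 dpa, so that it passed the thresholds at 10 dpa alone. Among all cotton probe sets past both thresholds at 0, 2 or 5 dpa, 42% were called higher at 10 dpa and 36.2% lower. Of the 24 brassinosteroid probe sets that were left out because another table holds them, 12 were called higher in BS at 10 dpa and 9 lower. They include the transcription factor BZR1 (-2.58, Ghi.9165.1.S1_s_at), the brassinosteroid-induced factor BEE2 (-2.33, Ghi.1543.2.S1_at), 3 CYCD3;1 matches between -4.60 and -2.48, an EXPA5 match at -7.08 (GhiAffx.6239.1.S1_at) and 5 NAC025 matches that rose by 3.31 to 7.61. BEE1 (Ghi.1312.1.S1_s_at), a relative of BEE2, ran the other way. It was past both thresholds at 0 dpa, at 1.98, and was higher in BS but not called at 10 dpa, with means of 2.13 in BS bolls and 0.63 in CN bolls. These lists add to 18 called higher and 20 called lower, and with quantile normalization to 18 and 13.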

How the data were processed

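The authors deposited log2 values of 24 arrays made with RMA in GeneSpring GX, with each probe set centred on its median over the arrays; 24132 rows were read, and 155 AFFX and RPTR control probe sets were left out of the tests. No depth applies to arrays, and their number (3 per group) limits the precision. The smallest 2-sided p of an exact permutation test of 3 against 3 arrays would be 0.1. Groups were taken from the sample titles. Group means were fitted to all 24 arrays with limma 3.58.1 in R 4.3.3 (16 residual and 3.53 prior degrees of freedom), with Benjamini-Hochberg adjustment over 23977 probe sets; errors are standard errors of this fit unless named otherwise. The code was tested on simulated data. The members, gene lists and tests were chosen with earlier results of these data known. The text names, for each Arabidopsis gene, the probe set with its closest match; the 5 largest rises and falls at 10 dpa; the 3 members at each end whose difference moved most from 0 dpa to 10 dpa; and the 3 members that changed least at 0, 2 and 5 dpa. Other probe sets named were chosen after their values were seen. Gene names come from the paper's tables, and 8 members also had a symbol in the array annotation. Alternatives were other scalings, fold thresholds, tests, a replicate block and leaving out arrays. Scanner files were not used here.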

Additional observations from a re-analysis of the deposited data

Results flagged for a closer look

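The GH17 match Ghi.1004.1.A1_at was marked because all 3 BS arrays lay above all 3 CN arrays at 2 dpa, with a difference of 2.51, and all below them at 10 dpa, with a difference of -2.32, both past 3-fold. The difference between these stages was not tested, since the 2 dpa arrays were among those on which the probe set was listed. The spiked controls, which are outside the comparisons, were higher on every BS array than on any CN array of the same stage. In the order of the stages the mean difference over 27 hybridization controls was 0.58, 0.84, 0.73 and 0.67 log2 units. Over 42 poly-A controls it was 1.12, 1.83, 1.72 and 0.94.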

How the results depend on the processing

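The count of up-regulated members at 10 dpa was 38 and that of down-regulated members 60, and both stayed within 1.5 times under every alternative over all 118 members. Quantile normalization gave 29 and 44, centring on array medians 37 and 60, centring on the hybridization controls 27 and 65, a fold threshold of 2 gave 43 and 65, and no fold threshold 47 and 67. The shares of all cotton probe sets moved more, from 8.97% up-regulated and 11.5% down-regulated in the main fit. They were 5.7% and 5.64% with quantile normalization, 8.63% and 12% with array medians and 5.42% and 20% with the hybridization controls. With a fold threshold of 2 they were 15.4% and 18.7%, and with none 34.4% and 32.7%. The fit on the 6 arrays of 10 dpa and the methods' t-test on them gave 38 and 60 each. Leaving out 1 array of 10 dpa gave 37 to 38 up-regulated and 60 down-regulated members. Of the 57 members whose identifiers end in neither _x_at nor _s_at, 23 were up-regulated and 22 down-regulated. The lower counts follow from fewer members, but the shares turned too, to 40.4% up-regulated and 38.6% down-regulated, against 32.2% and 50.8% of all 118, and the cause was not tested. No called member changed sign under quantile normalization or either centring. The 20 down-regulated probe sets of the further pathway genes were 13 with quantile normalization, the cause of which was not tested, and leaving out 1 array gave 18 to 19 up-regulated and 20 to 21 down-regulated. With centring on the hybridization controls the median BS minus CN at 2 dpa changed sign for inactivation (-0.26, against 0.59 as deposited) and for anther genes (-0.42, against 0.42). Arrays with the same replicate number did not deviate together (correlations of their deviations from the group means between -0.24 and 0.108 over the 4 stages), and a replicate block gave 38 and 60 again, with 18 and 20 for the further pathway genes.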
